A study of Mus musculus with 12 samples.

Results

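The genes described here encode cohesin, the factor pair that loads it onto DNA and the factor that releases it. They were chosen by symbol, as 10 of the 26409 genes in the deposited table, with the difference between *Dek* cKO and WT libraries already known, and *Mau2* is the member that stood out in that difference. All values of *Dek* cKO against WT given for these 10 genes are therefore a description, given without p-values, and the 1 count of calls among them repeats the choice. What the choice of members did not use was tested: the levels of the members relative to each other, the sexes of WT mice, the difference between the sexes in the genotype effect, and 41 other genes that act with or beside cohesin. These tests were also set with earlier results of these data known, and the 41 genes were compared between the same cKO and WT libraries.

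Hippocampal RNA of adult mice was sequenced in 12 libraries from WT and *Dek* cKO mice, with 3 females and 3 males of each genotype. The cKO mice lack exons 3 and 4 of *Dek* in every cell from conception, since the floxed allele was deleted in the germ line with CMV-Cre. The Cre transgene was later bred out and the line was kept by crossing heterozygotes. Mice of all 4 groups were 6 to 12 months old and had gone through behavioral testing before the tissue was taken. The library names of the 3 female WT mice begin with C57 and those of the other 9 mice with CMV, so in any comparison with female WT mice the sex or genotype and the name prefix cannot be told apart. DEK itself is a chromatin protein that binds DNA and histones.

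Cohesin is a ring-shaped protein complex that holds DNA. SMC1A, SMC3 and RAD21 close the ring, and a STAG protein, STAG1 or STAG2, sits on it. NIPBL and its partner MAU2 form the loader, which also drives the ring as it extrudes chromatin loops, while WAPL together with PDS5A or PDS5B releases the ring from DNA. In dividing cells cohesin holds sister chromatids together, and in neurons, which no longer divide, it shapes chromatin loops and gene expression. Changes in NIPBL, SMC1A, SMC3 and RAD21 cause Cornelia de Lange syndrome, a developmental disorder that affects the brain.

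All 10 members passed the filter on low values, a mean of at least 0.1 TPM (a transcript's share of all transcripts in a library, corrected for transcript length) over the 12 libraries, as did 18197 genes in all. The deleted gene gave between 44.2 and 51.9 TPM in WT and between 5.55 and 9.25 TPM in cKO libraries, so each library matched its genotype label. Sex labels did not all match: *Eif2s3y*, a Y-linked gene, gave 72.7 TPM in replicate 3 of the female cKO group and 0.111 TPM in replicate 1 of the male cKO group. Both were kept under their labels, and the main results by sex are also given without them. Male cKO replicate 3 stood apart in the sum of astrocyte markers, which was 1631 TPM against 537 to 809 TPM in the other 11 libraries, led by *Gfap* with 1267 TPM. *Gfap* and *Aqp4* lay above every other library, while *Aldh1l1* and *Slc1a3* did not. The hippocampal markers were all detected, with 57.6 to 122 TPM for the sum of 3 dentate gyrus genes and 203 to 290 TPM for 3 CA1 genes. None of 12 marker lists, from neurons to thalamus, separated the genotypes. Tissue beside the hippocampus varied more between libraries than astrocytes did, with choroid plexus markers summing to between 45.2 and 4407 TPM and meningeal markers to between 24.2 and 153 TPM, and its part in the results was not tested. Since the tissue is a mixture, fewer cells of a type and less RNA per cell cannot be told apart in any value below.

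*Mau2*, the loader subunit that binds and stabilizes NIPBL, was higher in every *Dek* cKO library than in any WT library. In WT mice it had 20.2, 20.6 and 18.5 TPM in females and 20.2, 22.0 and 21.4 TPM in males. In cKO mice it had 29.4, 27.5 and 27.1 TPM in the libraries labelled female and 27.8, 24.5 and 26.2 TPM in those labelled male. The gap between the groups lay between 22.0 TPM, the highest WT value, and 24.5 TPM, the lowest cKO value. The means were 20.5 ± 1.21 TPM in WT and 27.1 ± 1.65 TPM in cKO mice (SD, n = 6), a ratio of 1.32. On the scale of log2(TPM + 0.1) the difference was 0.40 (standard error 0.06).

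*Mau2* (ENSMUSG00000031858) lies on the minus strand of chromosome 8 of GRCm38, from 70016123 to 70042734, on another chromosome than *Dek*. Its first annotated start is shown here because *Mau2* is the member whose genotypes do not overlap. The 300 bases at chr8:70042685-70042984 (RefSeq promoter table, GRCm38.p6, minus strand) hold 250 bases before and 50 bases after the start, and the capitals mark the only match to GGGCGG on either strand, the core of the GC box, here read on the other strand:

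*Mau2* start: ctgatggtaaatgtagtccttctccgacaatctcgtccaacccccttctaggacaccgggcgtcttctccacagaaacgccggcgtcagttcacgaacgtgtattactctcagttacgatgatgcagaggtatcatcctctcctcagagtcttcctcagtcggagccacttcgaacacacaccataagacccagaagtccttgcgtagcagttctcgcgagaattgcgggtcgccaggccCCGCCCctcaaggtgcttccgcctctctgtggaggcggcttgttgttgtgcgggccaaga

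This motif was found in at least 1 window of all 7 members with a promoter window (*Mau2*, *Smc1a*, *Smc3*, *Stag1*, *Pds5a*, *Pds5b* and *Wapl*). It was found in 35.7% of all 32851 windows of the same length, a share per window and not per gene. The window at the first *Mau2* start was 56.0% G and C with 21 CpG, against medians of 52.7% and 7 CpG over all windows. It was nonetheless the lowest of the 7 members in both, since the other 6 ranged from 58.3% (*Smc1a*) to 80.3% (*Pds5a*) G and C. TATAAA was found in no member window and in 13.6% of all windows. *Nipbl*, *Rad21* and *Stag2* had no entry. A second start for *Mau2* is also listed within the gene (chr8:70029464-70029763), and gene-level TPM does not separate the starts. The window at this second start holds no match to GGGCGG and is 42.7% G and C with 1 CpG.

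Of the 10 members, 1 (*Mau2*) was called in the comparison of all cKO with all WT libraries, where a call needs an adjusted p under 0.05 and a fold change over 1.2 in limma. Over all genes tested, 27 of 18197 were called, or 0.148%. *Mau2* was also the only member whose genotypes did not overlap, which held for 123 of all genes tested, or 0.676%. Both counts repeat the contrast that drew attention to *Mau2* and support nothing. The call was absent in the fit on the 9 libraries named CMV, in the fit without both libraries of conflicting sex and in the fit with a replicate block. Within the libraries named CMV, the 3 male WT values of 20.2 to 22.0 TPM lay below the 6 cKO values of 24.5 to 29.4 TPM, with a log2 difference of 0.35 (standard error 0.07).

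**Figure D1:**
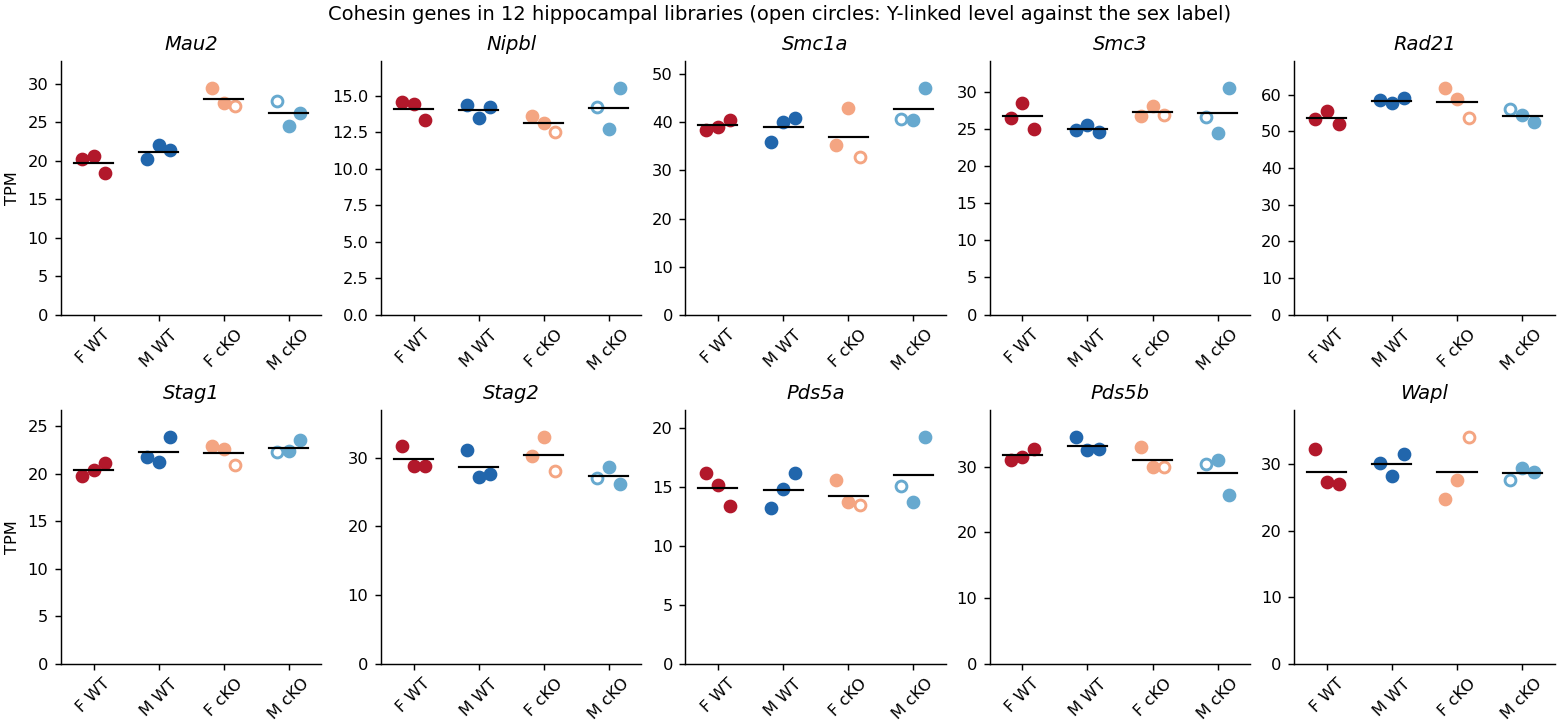
TPM of the 10 cohesin genes in each of the 12 libraries, 1 panel per gene with its own axis from 0, by labelled sex (F, female; M, male) and genotype; bars are group means and open circles the 2 libraries whose Y-linked level goes against their sex label. *Mau2* is the only panel in which the 6 cKO points, from 24.5 to 29.4 TPM, all lie above the 6 WT points, from 18.5 to 22.0 TPM.

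*Nipbl*, the large loader subunit that MAU2 binds, showed no such gap between the genotypes. It had 14.6, 14.4 and 13.3 TPM in female WT, 14.4, 13.5 and 14.2 TPM in male WT, 13.6, 13.1 and 12.5 TPM in female cKO and 14.2, 12.7 and 15.5 TPM in male cKO libraries. The genotypes overlapped, with 3 cKO libraries below the lowest WT library and 1 above the highest. The log2 difference was -0.05 (standard error 0.06). With group means subtracted, *Nipbl* and *Mau2* had r = 0.526 over the 12 libraries, given as a description. Within a library, *Mau2* exceeded *Nipbl* by 1.46 ± 0.0963 times in WT mice and by 2.00 ± 0.182 times in cKO mice (SD, n = 6). The ratio ranged from 1.38 to 1.63 in WT and from 1.69 to 2.17 in cKO libraries and did not overlap, with the smallest cKO ratio in male cKO replicate 3. This gap carries the difference in *Mau2*, which was known at the choice, and supports nothing beyond it. A ratio within a library stays the same when all its values are multiplied by the same factor, but quantile normalization can change it.

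The 3 genes of the ring differed little between the genotypes. *Rad21*, the kleisin that joins the heads of the SMC proteins, had 56.1 ± 2.87 TPM in WT and 56.2 ± 3.53 TPM in cKO mice (SD, n = 6), with a log2 difference of 0.00 (standard error 0.05). *Smc1a* had 39.2 ± 1.82 TPM in WT and 39.9 ± 5.21 TPM in cKO mice, with a difference of 0.02 (standard error 0.08), and *Smc3* had 25.9 ± 1.48 and 27.3 ± 1.99 TPM, with 0.07 (standard error 0.06). In each case the 2 groups overlapped. *Smc1a* was the most spread of the 3 among cKO mice. It had 35.2, 43.1 and 32.8 TPM in the libraries labelled female and 40.7, 40.4 and 47.1 TPM in those labelled male, while the 6 WT libraries lay between 36.0 and 40.9 TPM.

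The genes of the proteins that sit on the ring come in pairs of paralogs, and in all 12 libraries the same paralog of a pair had the higher TPM. *Stag2*, on the X chromosome, exceeded *Stag1*, on chromosome 9, by 1.37 ± 0.149 times in WT and 1.29 ± 0.118 times in cKO mice (SD, n = 6). *Pds5b* exceeded *Pds5a*, both on chromosome 5, by 2.21 ± 0.263 times in WT and 2.02 ± 0.348 times in cKO mice. The genotypes overlapped in both ratios. *Stag1* had 21.4 ± 1.40 TPM in WT and 22.5 ± 0.871 TPM in cKO mice (log2 difference 0.07, standard error 0.05) and *Stag2* 29.2 ± 1.82 and 28.9 ± 2.44 TPM (-0.02, standard error 0.06). STAG1 and STAG2 mark cohesin complexes with partly different places and residence times on chromatin.

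*Pds5b* had the largest difference among the 9 members other than *Mau2*, and it was toward lower values. It had 30.97, 31.5 and 32.6 TPM in female WT, 34.4, 32.6 and 32.6 TPM in male WT, 33.0, 30.0 and 29.9 TPM in female cKO and 30.4, 31.05 and 25.6 TPM in male cKO libraries. The groups overlapped, although 4 of the 6 cKO libraries lay below the lowest WT library. The log2 difference was -0.12 (standard error 0.06), and -0.07 without male cKO replicate 3, which held the lowest value and whose astrocyte marker sum was the highest. *Pds5a* had 14.8 ± 1.29 TPM in WT and 15.1 ± 2.16 TPM in cKO mice, with a difference of 0.02 (standard error 0.09) that was -0.05 without the same library. *Wapl*, the release factor, had 29.4 ± 2.23 and 28.7 ± 3.05 TPM (-0.04, standard error 0.07). Its highest and lowest values, 34.0 and 24.8 TPM, were both from libraries labelled female cKO. Set against the loader, the ratio of *Wapl* to *Mau2* was 1.44 ± 0.116 in WT and 1.07 ± 0.151 in cKO libraries. It ranged from 1.28 to 1.597 in WT and from 0.843 to 1.25 in cKO libraries without overlap, was below 1 in 2 cKO libraries, and carries the difference in *Mau2*.

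**Figure D2:**
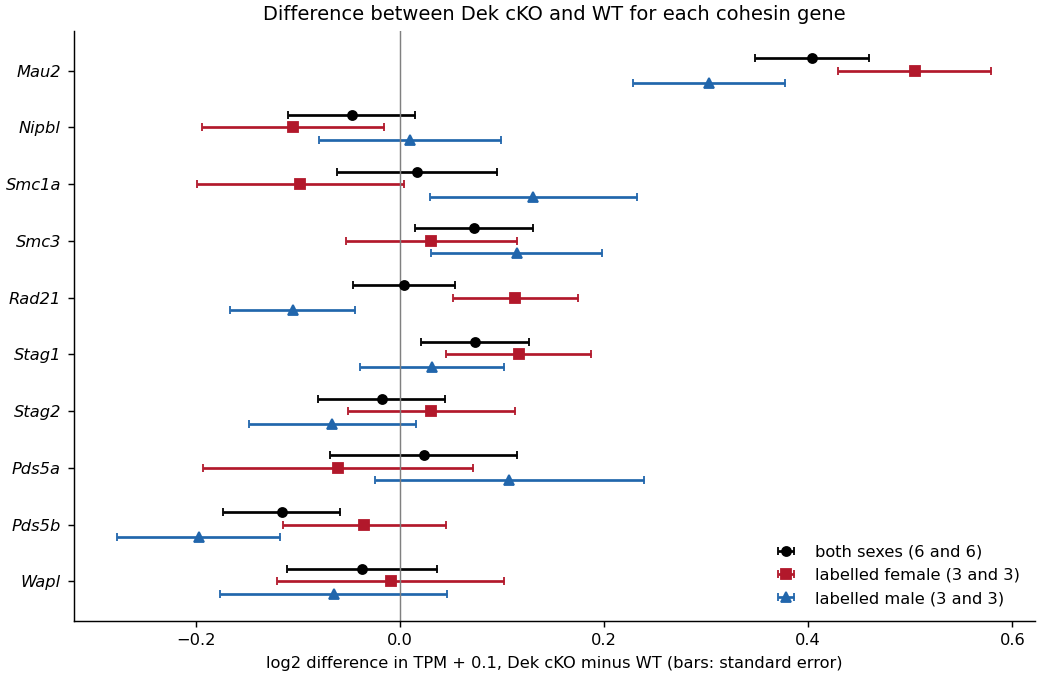
Log2 difference in TPM + 0.1 between *Dek* cKO and WT for each cohesin gene (horizontal axis), for all libraries and within each labelled sex; points are fitted differences and bars standard errors. *Mau2* lies at 0.40, 0.50 and 0.30 and the other 9 genes lie between -0.12 and 0.07 in the comparison of both sexes.

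Taking the 10 members as a list, 6 had a positive and 4 a negative difference and the median was 0.01, beside a median of 0.02 over all genes tested. The median absolute difference was 0.04 for the members and 0.05 for the 8982 genes whose mean reached 10 TPM. Only *Mau2*, *Nipbl*, *Smc3*, *Stag1* and *Pds5b* kept the sign of their difference in all 23 alternatives, and for *Smc1a*, *Rad21*, *Stag2*, *Pds5a* and *Wapl* at least 1 alternative gave the opposite sign. Alternatives that changed only the filter, the prior variance or the covariates gave the same difference by design. All of them refit the values known at the choice, so a kept sign is no sign of stability. Summed over the 9 members other than *Mau2*, WT libraries held 262.4 ± 5.50 TPM and cKO libraries 262.2 ± 6.91 TPM (SD, n = 6). With *Mau2* the sums were 283 ± 6.32 and 289 ± 7.44 TPM.

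**Figure D3:**
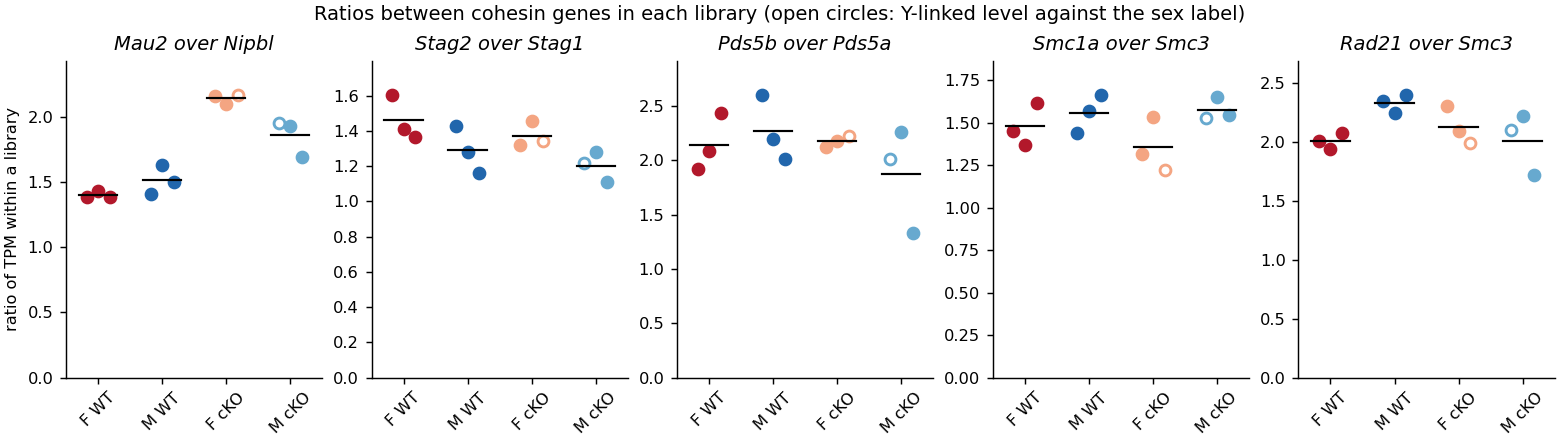
Ratios of TPM between cohesin genes within each library (vertical axis, from 0), by labelled sex (F, female; M, male) and genotype; bars are group means and open circles the 2 libraries with a conflicting sex label. *Mau2* over *Nipbl* ranges from 1.38 to 1.63 in WT and from 1.69 to 2.17 in cKO libraries, while the genotypes overlap in the other 4 ratios. The gap in *Mau2* over *Nipbl* carries the difference in *Mau2*.

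Within the sexes, where female cKO replicate 3 and male cKO replicate 1 count under their labels, *Mau2* was higher in cKO mice of each sex. The log2 difference was 0.50 (standard error 0.07, n = 3 per group) in the libraries labelled female and 0.30 (standard error 0.07) in those labelled male. Without both libraries of conflicting sex these were 0.53 and 0.26 (standard error 0.08 each). The difference between these effects was tested as an interaction, male effect minus female effect. Only the female effect sets CMV-named cKO against C57-named WT libraries, so for every member the interaction cannot be told apart from the name prefix. For *Mau2* it was -0.20 (standard error 0.11, limma adjusted p = 0.966), and -0.27 without both libraries of conflicting sex (adjusted p = 0.551). Over all alternatives its adjusted p lay between 0.551 and 1.00.

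None of the 10 members was called in the interaction, beside 0% of all genes tested. At an unadjusted p under 0.05 there was 1 member, *Rad21*, and 770 of 18197 genes, or 4.23%. Without both libraries of conflicting sex there were 2 members, *Rad21* and *Mau2*, at an unadjusted limma p under 0.05. The share of all genes in that fit is not given here. *Rad21* had 53.4, 55.5 and 52.1 TPM in female WT against 61.8, 58.9 and 53.7 TPM in the libraries labelled female cKO, and 58.6, 57.7 and 59.1 TPM in male WT against 56.2, 54.4 and 52.5 TPM in those labelled male cKO. Its difference was thus positive in females (0.11, standard error 0.06) and negative in males (-0.11, standard error 0.06), with an interaction of -0.22 (standard error 0.09, limma adjusted p = 0.966). Without both libraries of conflicting sex the female and male differences were 0.17 and -0.13 (standard error 0.06 each). The interaction of *Rad21* was then -0.30 (limma adjusted p = 0.320). In no alternative did the interaction of *Rad21* pass after adjustment. The interactions of the members other than *Rad21* and *Mau2* lay between -0.16 (*Pds5b*) and 0.23 (*Smc1a*), with an adjusted p of at least 0.966 in each case.

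Between male and female WT mice, none of the 10 members was called and none had an unadjusted p under 0.05, beside 0% of all genes called and 660 (3.63%) at an unadjusted p under 0.05. The Y-linked *Eif2s3y*, with a log2 difference of 7.41 (standard error 2.29), also had a limma adjusted p of 1.00 in this fit. The fit shares its spread over all 4 groups, and *Eif2s3y* varied within the cKO groups that hold the libraries of conflicting sex. Without both, its standard error was 0.468, while that of *Mau2* went from 0.0746 to 0.0721. The result for *Eif2s3y* is thus no measure of power for the members. With 3 libraries per group, the absence of a call does not show equal levels. Without both libraries of conflicting sex, *Eif2s3y* passed (adjusted p = 0.000639), as did *Ddx3y*, *Kdm5d* and *Uty*, and each member kept an adjusted p of at least 0.984 in limma. *Smc1a* and *Stag2* lie on the X chromosome, from which each female cell silences a copy. *Smc1a* had 38.5, 39.1 and 40.5 TPM in female WT and 36.0, 40.1 and 40.9 TPM in male WT libraries, a log2 difference, male minus female, of -0.02 (standard error 0.10, limma adjusted p = 1.00). *Stag2* had 31.7, 28.8 and 28.9 TPM in female WT and 31.1, 27.2 and 27.7 TPM in male WT libraries (-0.06, standard error 0.08, adjusted p = 1.00). The sexes overlapped for both genes.

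As a check, 4 X-linked genes known to be active on both X chromosomes of mouse females were set beside them. Each was higher in every female WT library than in any male WT library, and the share of all genes that do not overlap between WT sexes was not counted. *Kdm5c* had 25.9, 30.9 and 27.5 TPM in female WT and 19.1, 19.9 and 20.6 TPM in male WT libraries (log2 difference -0.50, standard error 0.14, limma adjusted p = 1.00). *Eif2s3x*, *Kdm6a* and *Ddx3x* had differences of -0.52, -0.45 and -0.34 (adjusted p = 1.00 each), so none of the 4 passed after adjustment. Without both libraries of conflicting sex the lowest adjusted p among them was 0.0586, for *Eif2s3x*. Whether the members differ from them was not tested. The largest differences among the members were 0.12 for *Rad21* and 0.12 for *Stag1*, both higher in male WT mice (standard errors 0.06 and 0.07, adjusted p = 1.00). All female WT libraries have C57 names, so sex cannot be told apart from the name prefix here.

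**Figure D4:**
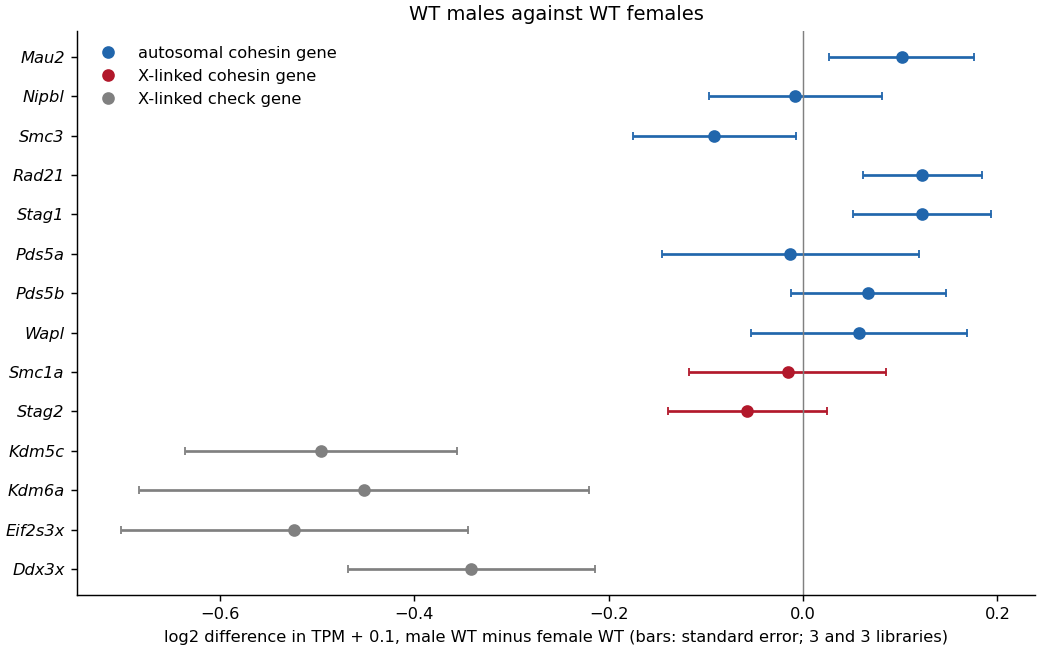
Log2 difference in TPM + 0.1 between male and female WT mice (horizontal axis; points are fitted differences, bars standard errors, 3 and 3 libraries) for the cohesin genes and 4 X-linked check genes. The cohesin genes lie between -0.09 and 0.12, the X-linked *Smc1a* and *Stag2* at -0.02 and -0.06, and the check genes between -0.52 and -0.34.

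TPM is corrected for transcript length, so the TPM of members can be set beside each other, although other biases particular to a gene remain. Over the 12 libraries the order of mean levels was *Rad21* (56.2 TPM), *Smc1a* (39.5), *Pds5b* (31.2), *Wapl* (29.1), *Stag2* (29.1), *Smc3* (26.6), *Mau2* (23.8), *Stag1* (21.9), *Pds5a* (15.0) and *Nipbl* (13.8). The ring genes *Rad21* and *Smc1a* came first, the ring gene *Smc3* lay in the middle and the loader subunit *Nipbl* came last. Neighbours in this order were compared within libraries with exact paired permutation tests (two-sided, 9 pairs, Benjamini-Hochberg adjusted, smallest possible p = 0.000488). The neighbours and their order were taken from the same 12 libraries, and a bias particular to a gene can be shared by all of them. These p-values thus measure only how repeatable a difference in TPM was between libraries. *Rad21* exceeded *Smc1a*, *Smc1a* exceeded *Pds5b* and *Stag1* exceeded *Pds5a* in 12 of 12 libraries each (adjusted exact p = 0.00146). *Pds5a* exceeded *Nipbl* in 11 of 12 libraries (log2 difference 0.11, adjusted exact p = 0.0143) and *Stag2* exceeded *Smc3* in 11 of 12 (0.13, adjusted exact p = 0.0220). *Smc3* exceeded *Mau2* in 8 of 12 libraries (0.17, adjusted exact p = 0.0220), but in 6 of 6 WT and only 2 of 6 cKO libraries, so this direction does not describe the cKO mice.

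Over all 12 libraries the other 3 neighbour pairs did not differ beyond their spread between libraries. They were *Pds5b* and *Wapl* (adjusted exact p = 0.0841), *Wapl* and *Stag2* (0.975), and *Mau2* and *Stag1* (0.109). *Mau2* exceeded *Stag1* in 3 of 6 WT and 6 of 6 cKO libraries, so the spread of this pair includes the split by genotype. *Mau2* ranked eighth of 10 in WT mice with 20.5 TPM, below *Stag1* with 21.4 TPM. In cKO mice it ranked seventh with 27.1 TPM, next to *Smc3* with 27.3 TPM. All members lay in the upper part of the genes tested, from the 57th percentile of mean level (*Nipbl*) to the 86th (*Rad21*).

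Replicate spread differed between members. The within-group SD of log2 values was 0.0623 for *Rad21*, 0.0649 for *Stag1* and 0.0752 for *Mau2*. It was 0.169 for *Pds5a*, 0.144 for *Wapl* and 0.131 for *Smc1a*, and these 3 lay above the median of 0.122 over the 8982 genes whose mean reached 10 TPM while the other 7 lay below it. *Mau2* was thus among the members measured with the least spread.

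Little of the sequence of these genes is shared with other genes. Of all stretches of 31 bases in the annotated transcripts of a member, at most 2.80% (*Smc3*) also occur in transcripts of another gene, and none do for *Nipbl* and *Smc1a*. For *Mau2* the share was 2.47%. Of the annotated genes that overlap a member, 2 are among the listed genes, both pseudogenes on the opposite strand, *Gm15267* in *Smc1a* with at most 1.70 TPM and *Gm8661* in *Stag1* with at most 0.0932 TPM.

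The genes whose pattern over the 12 libraries was most like that of *Mau2* were *Trim75*, *Perm1*, *Sbk3*, *Gm15319* and *Tgm5*. As a description, their Pearson r with *Mau2* in log2(TPM + 0.1) ranged from 0.922 to 0.962 over 12 libraries that share the genotype split, and from 0.153 (*Gm15319*) to 0.753 (*Trim75*) once group means were subtracted. *Perm1* had 2.71 ± 0.293 TPM in WT and 4.72 ± 0.417 TPM in cKO mice (SD, n = 6), and *Trim75* 0.0700 ± 0.0367 and 0.254 ± 0.0718 TPM. No cohesin gene was among them. Of the members, *Stag1* came closest with r = 0.495 and *Pds5b* was the lowest with r = -0.450, and both were near 0 once group means were subtracted (-0.02 and -0.08). The order of the members then differed, with *Pds5a* at 0.589, *Rad21* at 0.549, *Nipbl* at 0.526 and *Wapl* lowest at -0.327.

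Of 41 genes that act with or beside cohesin, 40 are listed and 38 were tested, and none was called in *Dek* cKO against WT mice in limma. At an unadjusted p under 0.05 there were 3, *Stag3*, *Smc2* and *Ncaph*, and 1208 of all genes tested (6.64%). The 38 genes had a median log2 difference of -0.03, with 16 positive and 22 negative values. *Stag3*, the STAG protein of meiotic cohesin, had 1.45 ± 0.561 TPM in WT and 2.29 ± 0.281 TPM in cKO mice (log2 difference 0.72, standard error 0.25, adjusted p = 0.586). The values overlapped, since WT libraries ranged from 0.692 to 1.93 TPM and cKO libraries from 1.88 to 2.61 TPM.

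Among the regulators of cohesin and sister chromatid cohesion, 11 of 12 were tested. *Pttg1*, which encodes securin, was the most abundant, with 79.5 ± 3.66 TPM in WT and 81.5 ± 8.57 TPM in cKO mice. *Chtf8*, a part of an alternative clamp loader, had the largest difference in this group (1.22, standard error 0.73, adjusted p = 0.852), from 1.26 ± 0.920 TPM in WT and 2.42 ± 1.15 TPM in cKO mice. Of the 11 genes tested, 5 had a mean under 1 TPM, among them *Sgo1* and *Espl1*, which act on cohesion in mitosis. *Cdca5*, which encodes sororin, is listed at 0 in 1 WT and 4 cKO libraries and was not tested.

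All 7 genes that anchor loops or work with cohesin at enhancers were tested. *Ctcf*, whose protein stops cohesin at loop anchors, had 61.8 ± 3.45 TPM in WT and 63.1 ± 4.07 TPM in cKO mice (log2 difference 0.03, standard error 0.05, adjusted p = 0.968). *Ldb1* was the most abundant (89.2 ± 4.55 and 90.3 ± 7.91 TPM) and *Maz* had the largest difference (-0.20, standard error 0.20, adjusted p = 0.917).

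Condensin and SMC5/6 are the other SMC complexes of the cell. Of the 8 condensin genes, 7 had a negative difference, with a median of -0.14, and none was called. Several of these differences were smaller in size than their standard error, such as that of *Ncapg2* (-0.09, standard error 0.15). The share of all genes with a negative difference was not counted. *Smc2*, a core subunit, had 7.25 ± 0.530 TPM in WT and 6.20 ± 0.785 TPM in cKO mice (log2 difference -0.23, standard error 0.09, adjusted p = 0.674), and the groups overlapped. *Ncaph*, the kleisin of condensin I, had 1.41 ± 0.931 and 0.633 ± 0.374 TPM (-1.02, standard error 0.46, adjusted p = 0.745), while *Ncaph2*, that of condensin II, was far more abundant with 62.8 ± 1.99 and 62.5 ± 3.27 TPM (-0.01, standard error 0.04, adjusted p = 0.995). Of the 8 SMC5/6 genes tested, 5 had a negative difference, with a median of -0.05. The most abundant, *Nsmce4a*, had 37.2 ± 2.85 TPM in WT and 37.8 ± 1.63 TPM in cKO mice (adjusted p = 0.979), and *Slf2* had the largest difference (0.21, standard error 0.25, adjusted p = 0.940). Among 4 germ line forms tested, *Rec8*, the meiotic kleisin, was the most abundant with 2.48 ± 0.595 and 2.75 ± 0.803 TPM (adjusted p = 0.958).

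**Figure D5:**
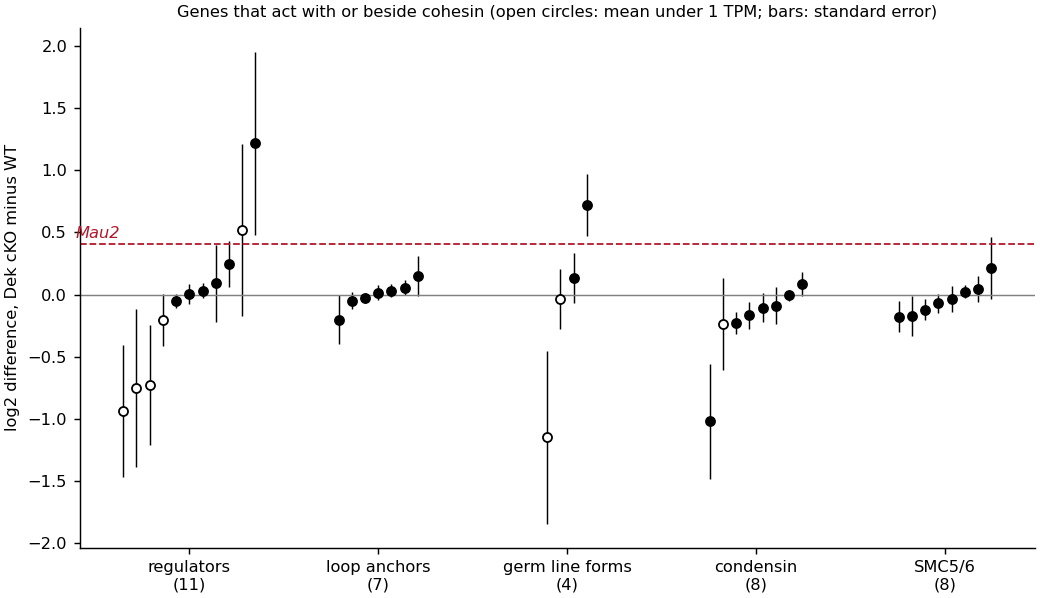
Log2 difference in TPM + 0.1, *Dek* cKO minus WT (vertical axis), for 38 genes that act with or beside cohesin, in 5 groups with the number tested; bars are standard errors, open circles genes with a mean under 1 TPM, and the dashed line marks the difference of *Mau2*, 0.40. Genes at low levels have wide bars, and the 30 genes whose mean reached 1 TPM lie between -1.02 and 1.22.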

How the data were processed

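Poly-A selected, stranded RNA libraries of 12 hippocampi were analysed. TPM values were deposited by the authors in a single table that holds no read counts, so the counting error of a value is not known. The labels name kallisto and mm10, while the paper describes STAR alignment to GRCm38/mm10 and quantification with Salmon, and which of these wrote the table is not stated. Listed genes sum to between 825750 and 845553 TPM per library. Columns were matched to samples by library name and rows to symbols by Ensembl ID in GENCODE M21 (25262 of 26409 found). Groups follow the labels. Nothing says how the mice relate by litter, so p-values measure the spread between these mice.

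Values were taken as log2(TPM + 0.1) and genes whose mean reached 0.1 TPM were tested with limma 3.58.1 (R 4.3.3, trended prior variance, two-sided, Benjamini-Hochberg adjustment over all genes tested). Adding 0.1 TPM understates differences of low genes. All cKO against all WT used 2 groups of 6, and sex and interaction contrasts used 1 fit of 4 groups. Calls needed both an adjusted p under 0.05 and a change over 1.2 times. Neighbouring levels were compared with exact paired permutation tests in Python 3.11.15 with numpy 2.4.6. The limma steps and the permutation test were tested on simulated data.

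The members, the partner genes, the markers and the tests were chosen with earlier results of these data known. Partners named in the text are those with the highest mean level and the largest difference among genes of at least 1 TPM in each group, and for *Mau2* the 5 genes with the highest r. *Ctcf*, *Smc2*, *Cdca5* and the genes at an unadjusted p under 0.05 were named after their values were seen. Alternatives changed the value added, the filter, the scaling, the prior variance, the covariates and the libraries used. Same-numbered libraries of a sex did not deviate together (correlations from -0.04 to 0.04). This gave no sign that replicate numbers pair mice, but with 3 libraries per group it cannot exclude such pairing.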

Additional observations from a re-analysis of the deposited data

Results flagged for a closer look

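In 1 of 20 groups (10 members in 6 WT or 6 *Dek* cKO libraries) a single library lay far from the rest. A limit of 1 in 20 per group would give about this count if the groups were independent. They share libraries, so the count was not tested against chance. The value set apart was *Pds5a* in male cKO replicate 3, with 19.2 TPM against 13.4 to 15.5 TPM in the other 5 cKO libraries. The same library had the highest of 12 values for *Nipbl*, *Smc1a*, *Smc3* and *Pds5a* and the lowest for *Stag2* and *Pds5b*, and its ratio of *Pds5b* to *Pds5a* was 1.34 against 1.92 to 2.60 in WT libraries. Its astrocyte markers summed to 1631 TPM against at most 809 TPM elsewhere, with 2 of the 4 markers, *Gfap* and *Aqp4*, above every other library and *Aldh1l1* and *Slc1a3* within their range. The part of these levels in the cohesin values was not tested. Without this library the log2 difference of *Mau2* between cKO and WT mice was 0.41 and that of *Nipbl* -0.09.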

How the results depend on the processing

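The difference of *Mau2* between cKO and WT mice ranged from 0.35 to 0.43 over 23 alternatives, which refit the values it was chosen on and so are no sign of stability. With a replicate block, on CMV-named libraries alone and without both libraries of conflicting sex, 0 members were called, and 3, 8 and 16 genes in all, in place of 27. No filter on low values gave 13 genes in all. Leaving out single libraries gave 13 (without female cKO replicate 2) to 27, with 15 without female cKO replicate 1 and 17 without male cKO replicate 1. The 6 neighbour pairs that differed in level were 6 or 7 in every alternative. No member was called between WT sexes or in the interaction and no partner gene in cKO against WT mice, in any alternative. Over all genes, 3 were called between WT sexes with no filter, 3 with a prior variance without trend and 4 without both libraries of conflicting sex. For the interaction these counts were 4, 2 and 2. Leaving out single libraries gave 0 to 1 in each.

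Uncalled differences near 0 changed sign. Between WT sexes *Nipbl* was at 0.00076 after median ratio rescaling, at 0.014 after quantile normalization and from -0.049 to 0.020 without single libraries, *Smc1a* from -0.051 to 0.042 and *Pds5a* from -0.087 to 0.062. In the interaction *Wapl* was at 0.10 without both libraries of conflicting sex and from -0.16 to 0.069 without single libraries, and *Smc3* from -0.0014 to 0.16. The replicate block changed no other call of a member. Read depth behind a value is unknown, and genes under 1 TPM, 8 of the 38 partner genes among them, are measured with wide errors.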
